A study of Mus musculus with 39 samples.

Results

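The genes described here are 10 DNA replication genes, Mcm2, Mcm3, Mcm4, Mcm5, Mcm6, Mcm7, Cdc6, Pcna, Rrm2 and Tyms, followed in the epididymal adipose tissue of C57BL/6J mice. They were chosen by name from the 29411 gene names carried by the arrays, and each was represented by its probe with the highest mean signal. RNA was measured on 39 one-colour Agilent arrays. Weaned mice of 3 to 4 weeks of age were divided into 5 groups of 30 animals, and 5 animals of a group were sacrificed every 3 weeks. The low fat control diet, LFC, gave 10% of calories from fat and had 11 arrays, on days 1, 6, 10 and 14 and in weeks 0, 3, 6, 9, 12, 15 and 18. The HFC diet, high in fat and sucrose, gave 60% of calories from fat and had 10 arrays, at the same time points except day 1. The groups HF5, HF20 and HF75 received the high fat, high sucrose diet with 5, 20 or 75 µg of KAL-1, a botanical formulation, and had 6 arrays each, at weeks 3 to 18. The labels name no allele or transgene, and all groups shared the strain, the light cycle and free access to food and water. The study's methods count weeks from day 14.

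A single array stands for each diet at each time point, and whether it holds RNA of 1 animal or of a pool is not given in the labels. Time points of a diet therefore served as its replicates, and the p-values below measure the spread between these arrays. Scanning of the day 1 to day 14 arrays took place after that of the week 0 to week 18 arrays, so time on the diet, the age of the mice and the scan period cannot be told apart in a comparison of early with late arrays, except as far as the week 0 arrays allow.

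A cell copies its genome once in S phase. Before that, Cdc6 and its partners load the ring of Mcm2, Mcm3, Mcm4, Mcm5, Mcm6 and Mcm7, the replicative helicase, onto replication origins, which is called licensing. Pcna is the sliding clamp that holds DNA polymerases on the template and also serves in repair, and Rrm2 and Tyms supply deoxynucleotides, Rrm2 as the S phase subunit of ribonucleotide reductase and Tyms as thymidylate synthase. Most of these genes are known targets of E2F transcription factors, which repress them in resting cells and activate them as cells enter S phase. Mature adipocytes do not divide, and division in a fat pad is known mainly from progenitors, endothelium and immune cells.

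Every value below is a normalised log2 signal, that is the log2 of the background-subtracted signal minus the array's 75th percentile, so that 0 is the level of that percentile and a difference of 1 unit is a factor of 2. The 39 arrays had 53.7% to 97.1% of probes well above background. Of these, 2 arrays stood apart. The LFC week 3 array had 16431 outlier spots and a median rank correlation of 0.694 with the other arrays. The HFC week 12 array had 10531 outlier spots, but its rank correlation of 0.938 did not stand apart. On the other 37 arrays there were 21 to 387 outlier spots, and the rank correlation was 0.902 to 0.952. Results that use these 2 arrays are given with and without them. The tissue label was checked with 6 adipocyte markers (Adipoq, Plin1, Cidec, Lep, Fabp4 and Retn), and 6 of 6 were well above background on every array, with a mean level of 1.67 to 5.71. The mean level of 6 epididymis genes (Crisp1, Lcn5, Lcn8, Adam7, Rnase10 and Spint4) ran from -8.02 to 1.80 over the arrays. The adipocyte markers check for fat and not for the depot. At week 6 the mean of 4 mesothelium genes (Msln, Upk3b, Wt1 and Lrrn4) was -5.81 on LFC and -5.91 on HFC. It was -6.71 on HF5, -6.45 on HF75 and -0.37 on HF20 at that week. On every array of another time point it was -2.73 or higher. The reason was not tested, and the week 6 arrays were kept in the main fits.

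Promoter sequences are shown for the 5 members with the largest early to late differences on LFC (given below, and chosen after those values were seen), to show which letters these genes share. RefSeq windows of 300 bases, 250 before to 50 after the gene start, were found for 9 of the 10 members on GRCm38.p6, with 10 windows because Mcm7 has 2. Mcm4 had no entry. They were searched on both strands for the E2F words TTTCCCGC, TTTGGCGC, TTTCGCGC and TTTGCCGC, which may overlap one another, and capitals mark the matches, written as they stand on the gene's strand. The Mcm3 window is chr1:20820263-20820562 (minus strand), Mcm5 chr8:75109259-75109558 (plus), Mcm6 chr1:128359656-128359955 (minus), the first Mcm7 window chr5:138171834-138172133 (minus) and Rrm2 chr12:24708004-24708303 (plus).
Mcm3: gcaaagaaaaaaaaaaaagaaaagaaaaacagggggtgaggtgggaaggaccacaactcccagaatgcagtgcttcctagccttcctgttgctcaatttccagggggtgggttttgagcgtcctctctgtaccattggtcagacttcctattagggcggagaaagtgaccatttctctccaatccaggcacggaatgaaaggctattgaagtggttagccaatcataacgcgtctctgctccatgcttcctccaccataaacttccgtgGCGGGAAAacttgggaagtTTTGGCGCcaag
Mcm5: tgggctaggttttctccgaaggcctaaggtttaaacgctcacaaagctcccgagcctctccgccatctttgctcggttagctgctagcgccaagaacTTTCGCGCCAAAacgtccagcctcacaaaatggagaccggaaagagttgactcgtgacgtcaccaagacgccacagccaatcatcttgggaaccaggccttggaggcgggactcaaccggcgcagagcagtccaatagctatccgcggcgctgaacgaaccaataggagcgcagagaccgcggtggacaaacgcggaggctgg
Mcm6: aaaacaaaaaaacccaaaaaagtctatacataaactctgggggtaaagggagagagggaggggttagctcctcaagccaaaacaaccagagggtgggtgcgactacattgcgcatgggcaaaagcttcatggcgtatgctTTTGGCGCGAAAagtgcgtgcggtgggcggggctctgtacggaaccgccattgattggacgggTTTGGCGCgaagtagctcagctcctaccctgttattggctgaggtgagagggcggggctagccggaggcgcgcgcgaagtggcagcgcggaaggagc
Mcm7: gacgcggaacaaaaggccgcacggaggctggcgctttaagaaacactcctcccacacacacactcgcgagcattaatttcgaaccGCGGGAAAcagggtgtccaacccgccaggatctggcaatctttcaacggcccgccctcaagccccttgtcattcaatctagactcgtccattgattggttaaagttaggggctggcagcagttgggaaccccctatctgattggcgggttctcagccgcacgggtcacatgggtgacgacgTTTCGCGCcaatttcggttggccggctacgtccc
Rrm2: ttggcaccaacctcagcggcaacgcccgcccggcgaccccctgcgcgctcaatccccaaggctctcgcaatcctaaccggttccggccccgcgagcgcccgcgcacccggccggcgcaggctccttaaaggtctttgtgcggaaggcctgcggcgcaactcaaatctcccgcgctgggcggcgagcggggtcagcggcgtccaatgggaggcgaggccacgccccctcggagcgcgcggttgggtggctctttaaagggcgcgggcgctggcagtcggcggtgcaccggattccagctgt

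An E2F word was found in the windows of 5 of the 9 genes, Mcm3, Mcm5, Mcm6, Mcm7 and Cdc6, while 2.26% of all 32851 promoter windows held one. Mcm5 and Mcm6 each carry a palindrome-like run in which TTTGGCGC and TTTCGCGC overlap on opposite strands, and Mcm6 has a further TTTGGCGC nearer the start. Mcm3 and Mcm7 each hold a word just after the start. Cdc6 has the single word TTTCCCGC. The windows of Mcm2, Pcna, Rrm2 and Tyms hold none of these letters. CCAAT, a short element common in promoters, was found for 7 of 9 genes (37.4% of all windows), and the CHR element TTTGAA for Mcm2 alone (17.9% of all windows). These matches describe letters in a window and not binding.

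A second pair of sequences bears on how Tyms was measured. Its bright and dim probes of 60 bases overlap in 40 bases, shown in capitals, of which 39 are the same. Counted from the 5′ end of the bright probe, the difference is C17A.
Tyms, bright probe: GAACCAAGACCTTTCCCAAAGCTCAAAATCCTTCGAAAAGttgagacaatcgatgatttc
Tyms, dim probe: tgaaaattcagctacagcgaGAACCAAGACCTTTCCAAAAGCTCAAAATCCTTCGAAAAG

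The array also carries a separate probe for the pseudogene Tyms-ps, and hybridisation of 1 transcript to the probes of another was not tested. Rrm2 and Cdc6 likewise had a second, dimmer probe, and the remaining 7 members had 1 probe each. The brightest probes were well above background on 39 of 39 arrays, apart from Mcm2 with 38. The spots of Mcm6 on the LFC day 10 array, of Mcm3 and Cdc6 on the LFC week 3 array and of Mcm3 on the HFC week 12 array were outliers and are missing from the fits.

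The late LFC arrays had lower means than the early ones for all 10 genes, with the widest gaps for Rrm2 and the helicase subunits Mcm5, Mcm6, Mcm3 and Mcm7, while the early and late ranges of Mcm7, Pcna, Mcm4, Mcm2, Tyms and Cdc6 overlapped. On LFC, Mcm5 and Rrm2 passed the test across all probes. On HFC, whose early values come from 3 arrays, none of the 10 passed, though the estimates of Rrm2, Mcm5, Mcm7 and Mcm3 were again the lowest.

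The helicase subunit Mcm5 gave 1.05, 1.88, 0.59 and 1.04 on the LFC arrays of days 1, 6, 10 and 14. At LFC weeks 3 to 18 its values ran from -2.31 through a median of -1.11 to 0.21, the lowest at week 3 and the highest at week 6. Every late LFC array was below every early one, and the mean went from 1.14 ± 0.54 (SD, n = 4) to -1.12 ± 0.82 (SD, n = 6). On HFC it gave 1.65, 1.40 and -0.07 at days 6, 10 and 14, and -0.79 to -0.34 with a median of -0.54 at weeks 3 to 18. The HFC groups did not overlap either, but the day 14 array lay only just above the late ones.

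Mcm3, another ring subunit, gave 0.11, 0.53, -0.17 and 0.28 on the early LFC arrays. Its 5 late LFC values ran from -2.35 to -0.50 with a median of -1.08. On HFC the early values were 0.24, -0.16 and -0.63 and the 5 late ones -2.07 to -0.97. Early and late did not overlap on either diet.

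The level of Mcm6 on LFC was 3.40, 4.35 and 3.60 at days 1, 6 and 14, against 0.27 to 3.09 with a median of 2.27 at weeks 3 to 18. The late LFC group was again wholly below the early group, with the lowest value on the week 3 array that stood apart. HFC gave 4.16, 3.89 and 2.06 at days 6, 10 and 14. The day 14 value lies at the bottom of the late HFC range of 2.03 to 3.44, so the HFC groups overlap.

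For Mcm7 the LFC values were 2.67, 2.72, 1.40 and 1.47 at days 1, 6, 10 and 14 and 0.34 to 1.66 with a median of 0.98 at weeks 3 to 18. A total of 5 of the 6 late values were below the lowest early one. On HFC it was at 2.38, 2.24 and 1.94 early and 0.42 to 1.36 late, with no overlap and the smallest early spread (SD 0.22, n = 3) of the 10 genes on that diet.

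Mcm2 and Mcm4 complete the ring. The Mcm2 level was -0.09, 0.08, -1.19 and -1.82 on the early LFC arrays, lower at the 2 later days, and -2.33 to -0.75 with a median of -1.55 on the late ones. HFC gave 0.41, -1.09 and -2.65 early and -2.17 to -1.11 late. The Mcm2 groups overlap on both diets, and its day 14 value on HFC was below all 6 late HFC values. Mcm4 was at 2.46, 2.36, 2.53 and 2.58 on the early LFC arrays, an SD of 0.09, and at 0.41 to 3.06 with a median of 2.83 on the late ones. Its late values thus lay on both sides of the early ones.

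Cdc6, the licensing factor that helps to load the ring, had the lowest signal of the 10. The early LFC values were -2.62, -2.48, -3.41 and -2.96, and the 5 late ones -4.92 to -2.35 with a median of -2.89. The HFC values were -2.20, -2.70 and -3.96 early and -4.72 to -2.28 late. Early and late ranges overlapped on both diets.

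Pcna, the clamp, had the highest signal, at 3.70, 3.64, 4.23 and 4.05 on the early LFC arrays. The late LFC values ran from 0.23 to 4.56 with a median of 3.77, and the lowest is the week 3 array. On HFC it was at 3.75, 3.53 and 2.86 early and 3.05 to 4.20 late. Signals of different probes are not levels that can be set against each other, so the order of the genes by signal says nothing of their transcript numbers.

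Rrm2 gave -1.07, -0.56, -1.25 and -0.42 on the early LFC arrays. At weeks 3 to 18 its LFC values lay between -4.37 and -2.42 with a median of -3.00, and the gap between the lowest early and the highest late value was wider than the early range. On HFC the early values were 0.11, -0.50 and -1.44 and the late ones -3.17 to -1.95 with a median of -2.30. Neither diet showed an overlap.

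Tyms gave 1.44, 2.16, 1.27 and 1.74 on the early LFC arrays and 0.29 to 1.88 with a median of 0.81 on the late ones, with 4 of 6 late values below the lowest early one. On HFC it was at 2.26, 2.13 and 0.69 early and 0.82 to 1.43 late. The HFC day 14 array was the lowest of the 3 early HFC arrays for all 10 genes. The HFC ranges of Tyms, Mcm6 and Mcm2 overlapped only through that array. Without it only the day 6 and day 10 arrays would stand for early HFC. The share of all probes with this order was not counted, so nothing is drawn from it.

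**Figure D1:**
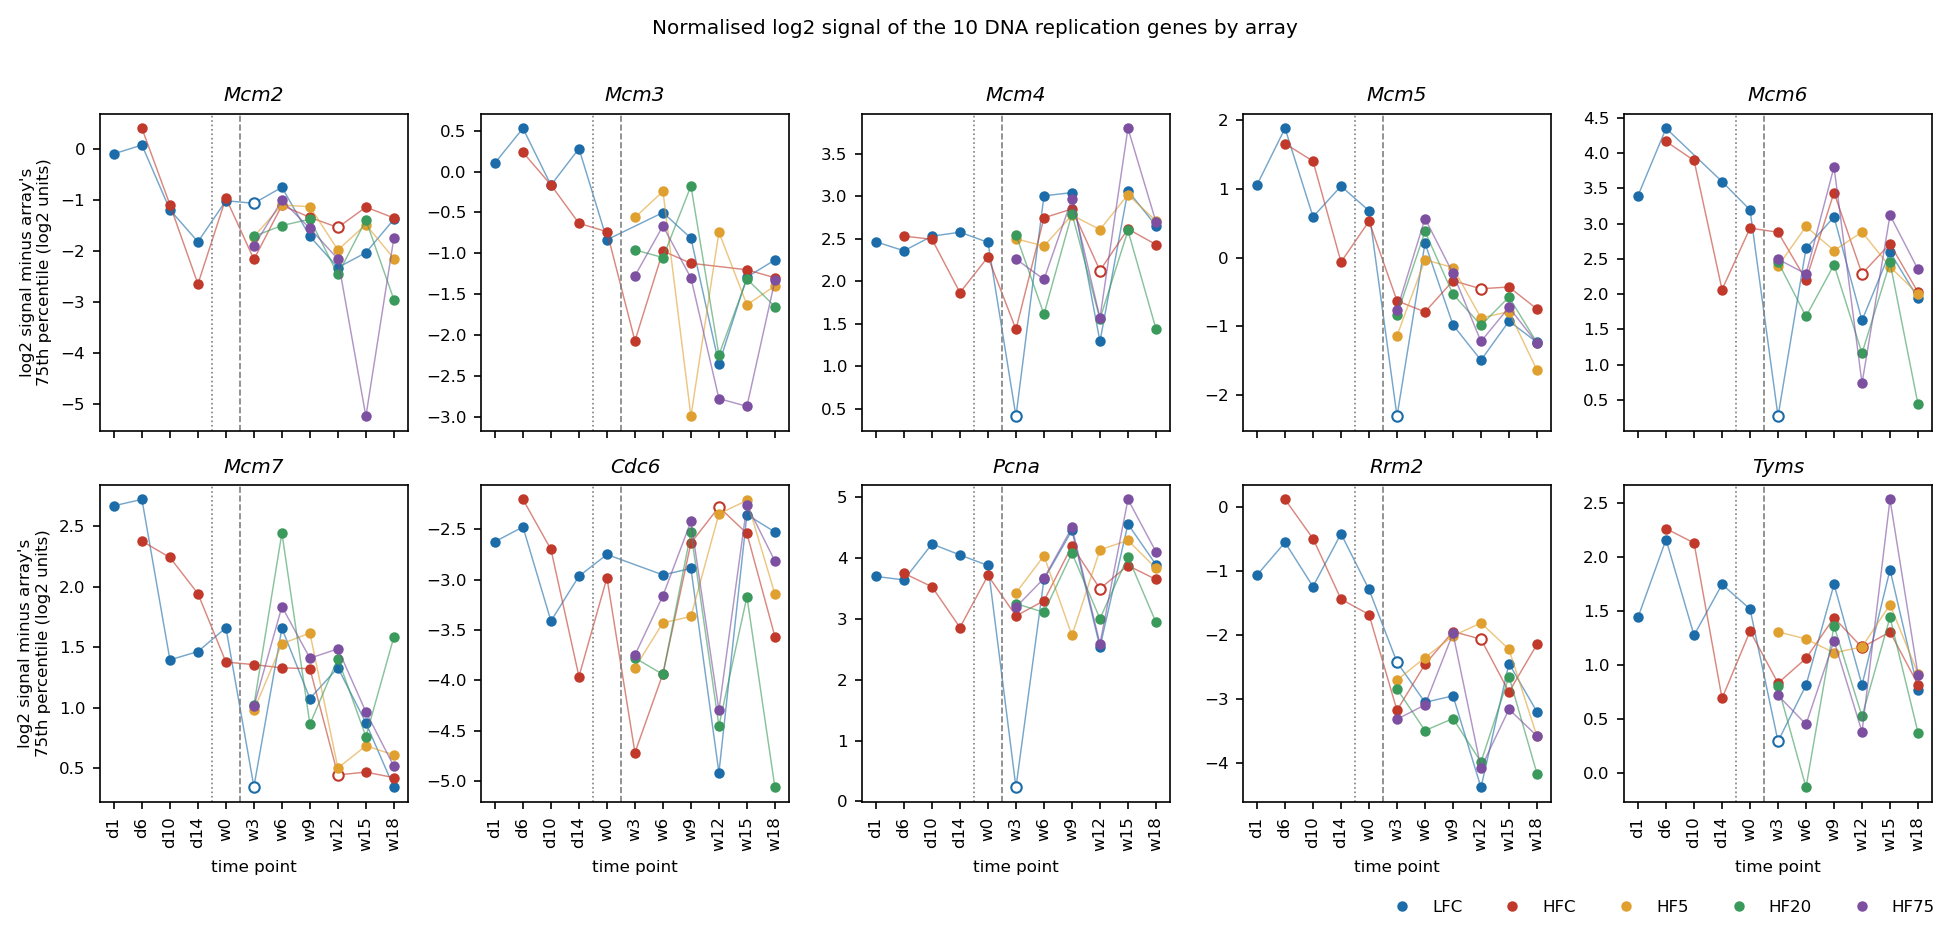
Normalised log2 signal of each of the 10 genes (y axis, 0 is the array's 75th percentile) at each time point (x axis, days 1 to 14 and weeks 0 to 18), with 1 point per array coloured by diet. Mcm5 and Rrm2 step down between the days and the weeks, with LFC means of 1.14 and -1.12 for Mcm5. The late values of Pcna and Mcm4 lie on both sides of their early ones.

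The late minus early difference was tested with limma over 31959 probes, in 1 fit of the 21 LFC and HFC arrays, with Benjamini-Hochberg adjustment and a threshold of 0.05. Of the 10 genes 2 passed on LFC, where 0.335% of all probes passed with a lower late value. Mcm5 fell by 2.26 (SE 0.42, adjusted p = 0.028) and Rrm2 fell by 2.25 (SE 0.40, adjusted p = 0.024). With LFC week 3 and HFC week 12 left out, Mcm5 fell by 2.02 (adjusted p = 0.024) and Rrm2 fell by 2.38 (adjusted p = 0.016). In bulk tissue, fewer cells of a type and less RNA per cell cannot be told apart.

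The next LFC differences did not pass. They were -1.75 (SE 0.57, adjusted p = 0.20) for Mcm6, -1.40 (SE 0.37, adjusted p = 0.11) for Mcm3 and -1.12 (SE 0.37, adjusted p = 0.20) for Mcm7. Mcm2 differed by -0.79, Pcna by -0.69, Tyms by -0.60, Cdc6 by -0.26 and Mcm4 by -0.24, each with an SE of 0.37 to 0.61. The 10 estimates were all below 0, as were 57.0% of those of all probes, and their median was -0.96 against -0.12 over all probes. Without the 2 arrays the median was -0.95, Pcna came to -0.09 and Mcm4 turned to 0.13, so the sign of Mcm4 rested on the LFC week 3 array. Scaling by the array median or quantile normalisation moved the LFC median of all probes from -0.12 to -0.26, and relative to it the median of the 10 genes was -0.83, -0.91 and -0.82 under these 3 scalings.

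On HFC 0 of the 10 genes passed, against 0.253% of all probes with a lower late value. Rrm2 came closest, with a difference of -1.84 (SE 0.44, adjusted p = 0.074), followed by Mcm5 at -1.56 (SE 0.46, adjusted p = 0.12), Mcm7 at -1.30 (SE 0.40, adjusted p = 0.13) and Mcm3 at -1.15 (SE 0.41, adjusted p = 0.17). The differences of Mcm6 (-0.78), Tyms (-0.59), Mcm2 (-0.33), Cdc6 (-0.32), Mcm4 (0.07) and Pcna (0.22) were within 1.5 SE of 0. With LFC week 3 and HFC week 12 left out, Rrm2 was at -1.91 (adjusted p = 0.058) and Mcm5 at -1.58 (adjusted p = 0.087), and with array weights in limma 6 of the 10 genes passed on HFC, Mcm3, Mcm5, Mcm6, Mcm7, Rrm2 and Tyms. With those weights 16.7% of all probes passed with a lower late value, against 0.253% without them. The median over the 10 genes was -0.69 against 0.03 over all probes, and it was -1.23 without the HFC day 14 array and -0.35 without the HFC day 6 array. At an unadjusted p under 0.05 there were 4 of the 10 genes on HFC and 5 on LFC, where 18.6% and 12.3% of all probes were.

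Every late array lay below every early one for 4 genes on LFC (Mcm3, Mcm5, Mcm6 and Rrm2) and for 4 on HFC (Mcm3, Mcm5, Mcm7 and Rrm2). Over all probes this was so for 2.24% on LFC and 7.79% on HFC. Mcm3, Mcm5 and Rrm2 were in both groups of 4. The shares over all probes differ between the diets, and LFC has 4 early arrays where HFC has 3.

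The LFC calls depended on single early arrays and on the background correction. Neither Mcm5 nor Rrm2 passed when the LFC array of day 1, day 6 or day 14 was left out, with adjusted p of 0.066 to 0.094, while the differences stayed at -2.33 to -2.01, and without the LFC array of week 18 Mcm5 came to an adjusted p of 0.051. With normexp background correction in place of the scanner's own, Rrm2 differed by -0.87 (adjusted p = 0.77) and Mcm5 by -1.45 (adjusted p = 0.44). Quantile normalisation also ended both calls, although the differences were further from 0, at -3.07 for Mcm5 (adjusted p = 0.24) and -3.07 for Rrm2 (adjusted p = 0.10). A fit of each diet alone left the differences at -2.26 and -2.25 and gave an adjusted p of 0.12 for Mcm5 and 0.078 for Rrm2 on LFC.

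**Figure D2:**
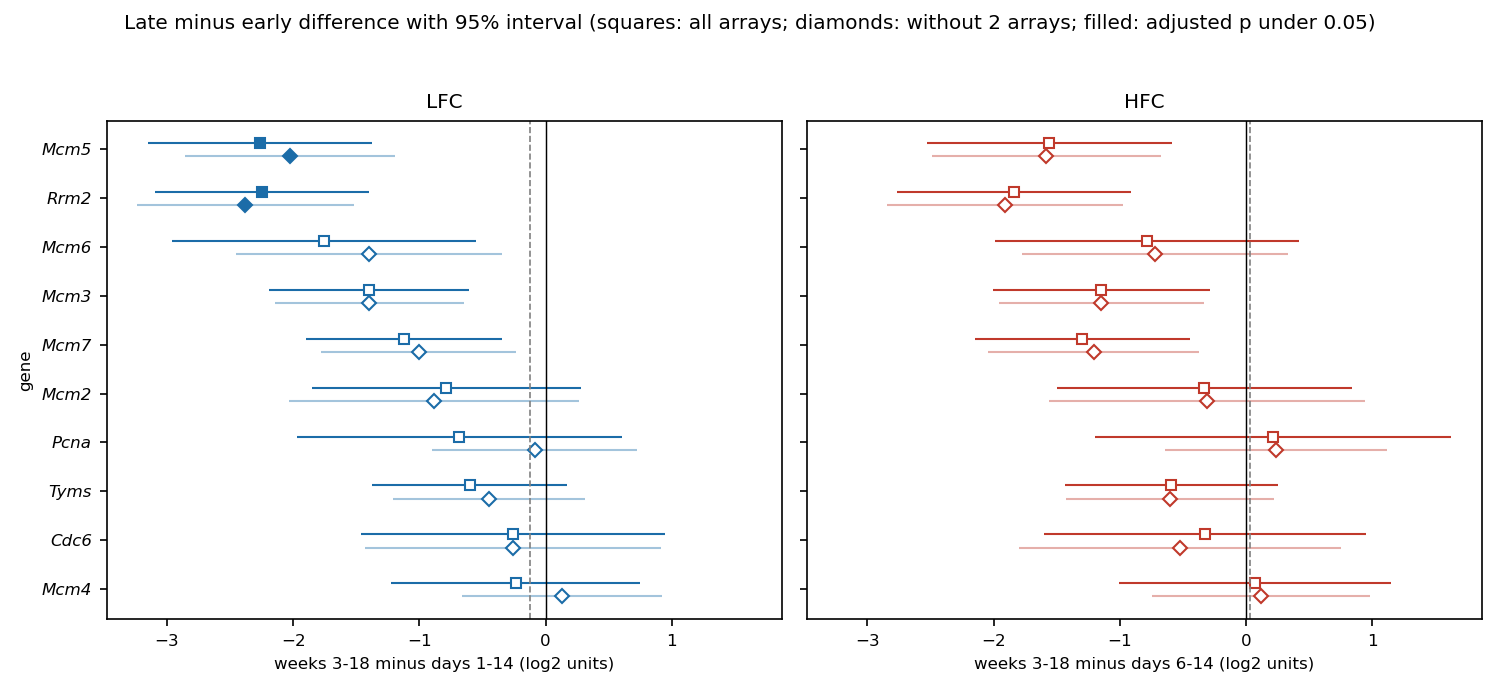
Late minus early difference of each gene in log2 units (x axis) on LFC (left, weeks 3 to 18 minus days 1 to 14) and HFC (right, weeks 3 to 18 minus days 6 to 14), with 95% intervals from limma. Squares use all arrays and diamonds leave out LFC week 3 and HFC week 12, and the filled symbols, an adjusted p under 0.05, are Mcm5 (-2.26) and Rrm2 (-2.25) on LFC.

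Second probes gave the same direction. The dimmer Rrm2 probe differed by -2.03 (adjusted p = 0.10) on LFC and by -1.59 on HFC, and without the 2 arrays that stood apart it fell by 2.38 on LFC (adjusted p = 0.016). The dimmer Cdc6 probe differed by -1.17 on LFC and -0.81 on HFC, further from 0 than the brighter probe's -0.26 and -0.32, and neither passed. The dimmer Tyms probe, shown above, differed by -1.01 and -0.38.

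Week 0 gives the comparison within the scan period of the weeks. Mcm5 was at 0.68 on LFC and 0.53 on HFC at week 0, above all 6 late arrays of the same diet, and Rrm2 was at -1.29 and -1.68, likewise above them. The share of all probes with this order was not counted, so nothing is drawn from it. The weeks 3 to 18 minus week 0 difference on LFC was -1.80 (SE 0.71, p = 0.020) for Mcm5 and -1.78 (SE 0.67, p = 0.016) for Rrm2 by limma. After adjustment over all probes neither passed, and with 1 array per diet at week 0 the SE is large. On HFC they differed by -1.09 (SE 0.71) and -0.76 (SE 0.67). An unadjusted limma p under 0.05 was found for 2 of the 10 genes on LFC and 0 on HFC. Over all probes the shares were 1.88% and 0.751%. The median over the 10 genes was -0.59 on LFC and -0.41 on HFC, against 0.05 and 0.06 over all probes, and -0.49 and -0.43 without the 2 arrays that stood apart. For Mcm3 and Rrm2 the week 0 arrays were below the lowest early value of the same diet. Mcm3 was at -0.83 on LFC and -0.74 on HFC at week 0, against 0.28 and -0.63 at day 14. Rrm2 lay just below its lowest early LFC value of -1.25 and its lowest early HFC value of -1.44. At day 14 Rrm2 was at -0.42 on LFC and -1.44 on HFC. Mcm5 was at 1.04 and -0.07 at day 14, so at week 0 it was lower on LFC and higher on HFC. The paper, in its processing of liver arrays, treats day 14 and week 0 as the same time. Here the day 14 and week 0 arrays also differ in scan period, with 1 array per diet at each. The causes of a shift between them cannot be told apart and were not tested. On HFC the difference of Rrm2 between week 0 and the days, -1.07 (SE 0.72), was further from 0 than that between the later weeks and week 0.

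Within weeks 3 to 18 the values of several genes moved together from array to array. The medians over the diets of a week show no steady trend for Rrm2 (-3.01, -3.05, -2.01, -4.02, -2.65 and -3.57 at weeks 3, 6, 9, 12, 15 and 18, without the 2 arrays). Mcm7 had its highest median at week 6 (1.66) and its lowest at week 18 (0.52). At week 12, where the HFC array is 1 of the 2 that stood apart, Rrm2 was at -4.37, -3.98 and -4.07 on LFC, HF20 and HF75, and at -1.81 and -2.07 on HF5 and HFC. Mcm6, Cdc6, Pcna and Mcm4 were lowest on the same 3 arrays of that week. At week 18 the HF20 array held the lowest value of all 5 diets for 8 of the 10 genes, the exceptions being Mcm5 and Mcm7.

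Over the 28 arrays of weeks 3 to 18 other than the 2 that stood apart, Pearson's r between pairs of the 10 genes had a median of 0.31 and ran from -0.47 to 0.87, with 15 of 45 pairs above 0.5 and 12 below 0. The arrays share diets, time points and scan dates, so r is given as a description. The closest pairs were Cdc6 with Pcna (r = 0.87, Spearman's rho = 0.89), Mcm4 with Cdc6 (r = 0.86, rho = 0.82) and Mcm4 with Pcna (r = 0.81, rho = 0.77). After the mean of each week was removed, these were 0.77, 0.77 and 0.67, and without the 2 arrays farthest from the median they were 0.85, 0.83 and 0.74. Mcm7 ran the other way, with r = -0.47 against Cdc6 (rho = -0.52) and -0.70 within weeks. The genes with the largest late minus early differences, Mcm5 and Rrm2, were not in the closest pairs.

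Correlation with markers was computed for the endothelial and adipocyte lists alone, so it does not single out a cell type. Over the same 28 arrays the mean of 4 endothelial markers (Pecam1, Cdh5, Tek and Kdr) had r = 0.76 with Mcm4 (rho = 0.40), 0.75 with Cdc6 (rho = 0.63) and 0.71 with Pcna (rho = 0.63), and r = -0.66 with Mcm7 (rho = -0.72, and -0.86 within weeks). It was r = 0.60 with Rrm2 (rho = 0.40), 0.22 with Mcm2 (rho = 0.30) and 0.05 with Mcm5 (rho = -0.0038). On the LFC, HF20 and HF75 arrays of week 12 that mean was 0.76, 0.44 and 1.01, against 3.33 on HF5. The mean of the progenitor markers listed below had the same order there, at 1.42, 1.64 and 1.76 against 2.93 on HF5. The mean of the 6 adipocyte markers had r = -0.57 with Cdc6 and -0.50 with Mcm4, against -0.22 with Mcm2 and 0.05 with Mcm7. The part of cell composition in the values of these genes was not tested.

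**Figure D3:**
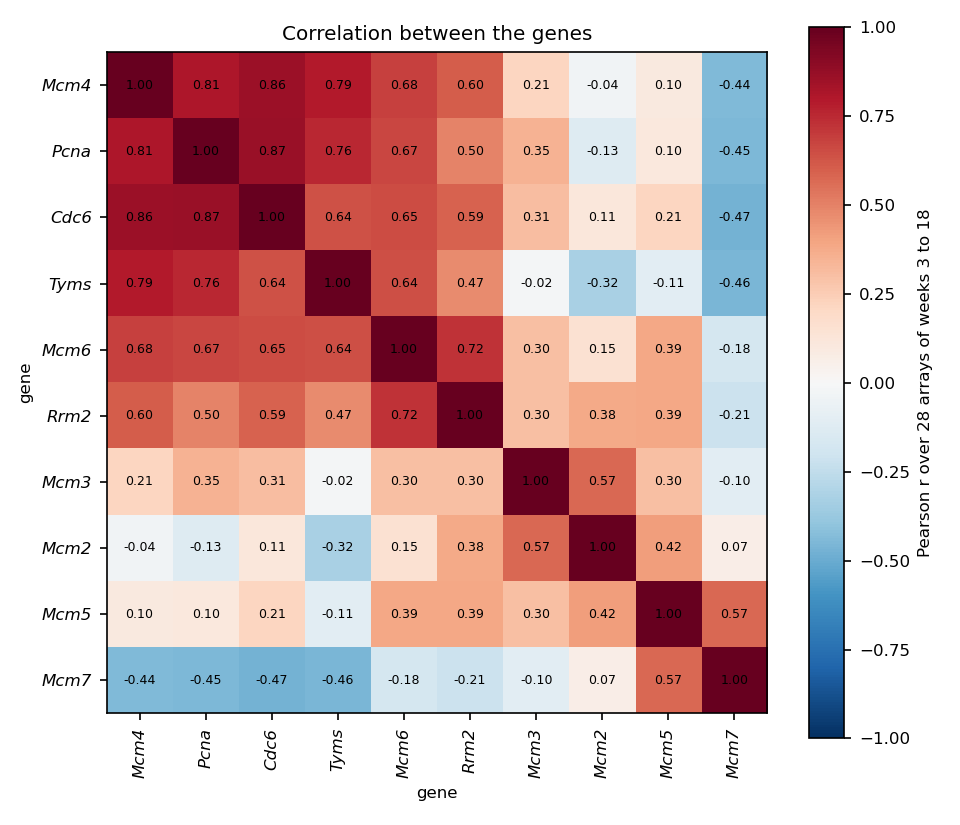
Pearson's r between the 10 genes over 28 arrays of weeks 3 to 18 (both axes list the genes, colour gives r). Mcm4, Cdc6, Pcna and Tyms form the block of high r, up to 0.87 for Cdc6 with Pcna, and Mcm7 has r down to -0.47 against them.

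Marker lists were also set beside the early to late difference. The 4 endothelial markers had a mean level of 0.73 to 3.70 on the early LFC arrays and 0.76 to 3.43 on the late ones, and the 6 adipocyte markers 2.43 to 5.40 and 2.47 to 5.35, so these ranges overlapped almost wholly. The 5 progenitor markers (Pdgfra, Pdgfrb, Dpp4, Ly6a and Cd34) went from 1.72 to 2.22 early and 1.42 to 3.08 late, and the 5 macrophage markers (Adgre1, Cd68, Csf1r, Mrc1 and Itgax) from -0.34 to 1.17 and -1.50 to 1.65. The T cell markers were at -4.58 to -3.66 early and -3.91 to -1.95 late on LFC, and the B cell markers at -4.82 to -2.40 and -3.01 to -0.46. Lists of other tissues ranged widely on LFC, with germ cell genes at -3.42 to 2.08 early and -4.40 to -0.50 late, epididymis genes at -7.14 to 1.39 and -7.30 to 1.71, muscle genes at -4.75 to -2.53 and -4.82 to -0.54, red cell precursor genes at 0.58 to 2.27 and 0.83 to 3.51, and mesothelium genes at -1.06 to 0.24 and -5.81 to 0.76. On HFC the adipocyte markers were at 5.09 to 5.41 early and 2.63 to 5.55 late, and the endothelial ones at 0.91 to 2.09 and 1.21 to 3.64. None of the 10 genes is a marker in these lists. Of the markers tested, 0 passed by limma on either diet, and the smallest adjusted p was 0.147, for the B cell marker Ms4a1 on LFC. The late minus early medians of the T cell and B cell markers were 1.02 and 1.52 on LFC, with 0 estimates below 0. On HFC they were 0.06 and 0.53, with 2 estimates below 0 in each list. The part of cell mix in the difference was not tested.

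The other genes of the replication pathway were taken by function, and 95 genes in all, members included, were found on the array. Among 10 further origin and licensing genes 0 passed on LFC or HFC, with medians of -0.36 and -0.64. The smallest LFC p was that of geminin, Gmnn, which blocks a second licensing, at -1.47 (adjusted p = 0.10). Of 13 origin firing genes 0 passed, with medians of -0.84 and -1.05, and the GINS subunit Gins2 differed by -1.79 on LFC (adjusted p = 0.079).

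The polymerase and replisome list held genes that passed on both diets. A total of 3 of 23 fell on LFC and 3 of 23 on HFC, with 22 and 20 estimates below 0 and medians of -0.89 and -0.86. Chaf1a, a subunit of the histone chaperone that follows the fork, fell by 2.33 on LFC (adjusted p = 0.014) and fell by 1.95 on HFC (adjusted p = 0.047). The leading strand polymerase Pole fell by 2.14 (adjusted p = 0.026) and fell by 1.96 (adjusted p = 0.047). Fen1, the nuclease that trims Okazaki fragments, fell by 1.82 (adjusted p = 0.023) and fell by 1.82 (adjusted p = 0.047).

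Among 9 further nucleotide supply genes 1 fell on LFC, the thymidine kinase Tk1, by 2.73 (adjusted p = 0.030), and on HFC it differed by -2.35 (adjusted p = 0.079). The list's medians were -0.77 and -0.71. The ribonucleotide reductase subunit Rrm2b, which serves outside S phase, differed by 1.18 on LFC (adjusted p = 0.36), opposite in sign to Rrm2, and the nucleotide hydrolase Samhd1 by -0.27. Of 12 S phase regulators 2 fell on LFC, the cyclin Ccna2 by 2.67 (adjusted p = 0.034) and Uhrf1, which couples DNA methylation to replication, by 2.32 (adjusted p = 0.033), with medians of -0.91 on LFC and -1.10 on HFC, where 0 passed.

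Among 10 E2F repressors and brakes of the cell cycle 0 passed, with medians of 0.02 on LFC and -0.17 on HFC, and the smallest LFC p was that of the pocket protein gene Rbl1, at -0.71 (adjusted p = 0.33). Of 6 mitosis genes 3 fell on LFC, Top2a by 2.93 (adjusted p = 0.034), Ccnb1 by 2.74 (adjusted p = 0.031) and Plk1 by 2.41 (adjusted p = 0.030). On HFC 1 fell, Plk1, by 2.50 (adjusted p = 0.047). The mitosis medians, -2.30 and -1.92, were the lowest of these lists, and the mean level of the 6 genes was -0.37 to 0.98 on the early LFC arrays and -2.80 to -0.92 on the late ones, with no overlap.

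Leaving out LFC week 3 and HFC week 12 added 3 genes to those named, on LFC. They were Gins2 (adjusted p = 0.0495), the DNA ligase Lig1 (adjusted p = 0.035) and the transcription factor E2f1 (adjusted p = 0.030).

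**Figure D4:**
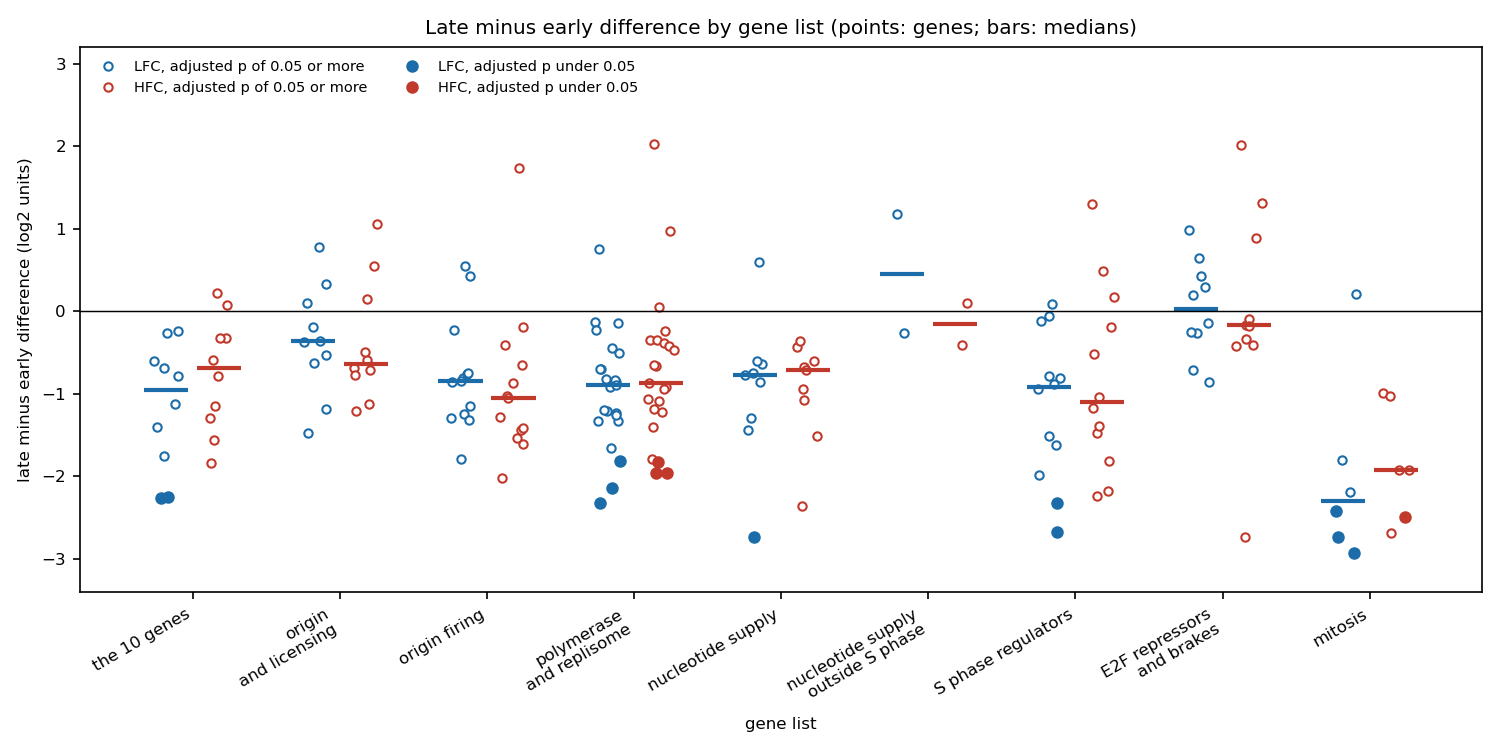
Late minus early difference of each gene (y axis, log2 units) by gene list (x axis) on LFC and HFC, with bars at the medians. The mitosis medians are the lowest (-2.30 on LFC and -1.92 on HFC), and the E2F repressors and brakes lie around 0 (0.02 and -0.17).

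Outside these lists, the 5 genes whose values were most like the mean of the 10 members over 37 arrays, among 27431 probes compared, were Gm9171 (r = 0.89), Gm2862 (r = 0.88), Gm7856 (r = 0.87), 2010317E24Rik, now Sapcd2 (r = 0.87), and Fam54a, now Mtfr2 (r = 0.87). The first 3 are predicted loci, and Gm7856 is annotated as similar to Cdc20, a gene of the mitosis list. Whether its probe also takes up Cdc20 transcript was not tested. The arrays span all diets and time points, and r is a description of these arrays.

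Whether the fall differed between the diets was tested as the late minus early change of the HFC minus LFC difference, blocked by time point, on 31647 probes of 20 arrays. With limma 0 of the 10 genes passed (0% of all probes), and 0 had an unadjusted p under 0.05, where 6.93% of all probes did. By the methods' t-test 0 passed too. The median was 0.28, against 0.19 over all probes, and 1 of the 10 estimates was below 0, as were 40.1% of those of all probes. The estimate was 1.42 for Mcm6 (95% interval -0.42 to 3.26), 0.97 for Pcna (-0.74 to 2.69) and 0.73 for Mcm5 (-0.69 to 2.15), and 0.49 for Rrm2 (-1.12 to 2.11). No difference between the diets in the fall was detected. The upper ends of these 4 intervals lie above 2 units, so a fall smaller on HFC by that much is not excluded. Their lower ends lie at -1.12 or higher. Without the time points of the 2 arrays the median was 0.19, with Mcm6 at 0.88, and 4 of the 10 estimates were below 0.

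At days 6 to 14, 0 of the 10 genes differed between HFC and LFC by limma (0% of all probes) or by the methods' t-test. By limma 0 were at an unadjusted p under 0.05, where 6.87% of all probes were. The estimates ran from -0.86 for Mcm6 (95% interval -2.45 to 0.73) to 0.33 for Mcm7 (-0.61 to 1.26).

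At weeks 3 to 18 all 5 diets were fitted together on 32083 probes of 30 arrays, blocked by time point. For HFC against LFC 0 of the 10 passed (0% of all probes). At an unadjusted p under 0.05 there was 1, Mcm5, higher on HFC by 0.56 (SE 0.26, limma p = 0.044), and it did not pass after adjustment. Over all probes 2.33% had such a p. Without the 2 arrays it differed by 0.25 (p = 0.33). Rrm2 differed by 0.63 (95% interval -0.09 to 1.35) and Mcm6 by 0.56 (-0.23 to 1.36), and the other 7 lay between -0.30 and 0.38. Leaving out the same 2 arrays brought Mcm6 to 0.08 and Rrm2 to 0.60, and the median of the 10 genes went from 0.11, with 3 estimates below 0, to -0.11, with 6 below 0.

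The KAL-1 comparisons share the 6 HFC arrays. Against HFC, neither a single dose nor the average of the doses gave a call, with 0 of the 10 genes passing by limma (0% of all probes in each) or by the methods' t-test. The median of Rrm2 was lowest on HF20, at -3.39, with -3.23 on HF75 and -3.00 on LFC, where its lowest single value lay (-4.37). On HF20 Rrm2 ran from -4.16 to -2.65, against -3.17 to -1.95 with a median of -2.30 on HFC. A total of 4 of 6 HF20 values were below the lowest HFC value. The HF20 minus HFC difference was -0.96 (95% interval -1.68 to -0.24, limma p = 0.012, adjusted p = 0.77). On HF75 Rrm2 differed by -0.75 (95% interval -1.47 to -0.03, p = 0.042, adjusted p = 1.00) and on HF5 by -0.0015 (-0.72 to 0.72). The other estimate at an unadjusted p under 0.05 was Mcm6 on HF20, at -0.82 (95% interval -1.62 to -0.03, p = 0.043). Leaving out the 2 arrays that stood apart gave -0.78 (p = 0.034) for Rrm2 and -0.74 (p = 0.034) for Mcm6 on HF20, and -0.58 (p = 0.11) for Rrm2 on HF75.

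For HF5 0 of the 10 had an unadjusted p under 0.05, and the estimates ran from -0.20 for Mcm5 (95% interval -0.75 to 0.34) to 0.30 for Mcm4 (-0.40 to 1.00). Over all probes 1103 (3.44%) had such a p for HF5, 1619 (5.05%) for HF20 and 494 (1.54%) for HF75. Scaling each array to its median in place of its 75th percentile moved the median of all probes for HF5 from -0.03 to 0.32, and the median of the 10 genes with it, from 0.11 to 0.43. Relative to all probes the 10 genes were at 0.13 and 0.11 in these scalings. With the median scaling the sign of the genes' median turned on HF20 (-0.33 to 0.03) and HF75 (-0.05 to 0.35), so no direction is given for the doses.

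**Figure D5:**
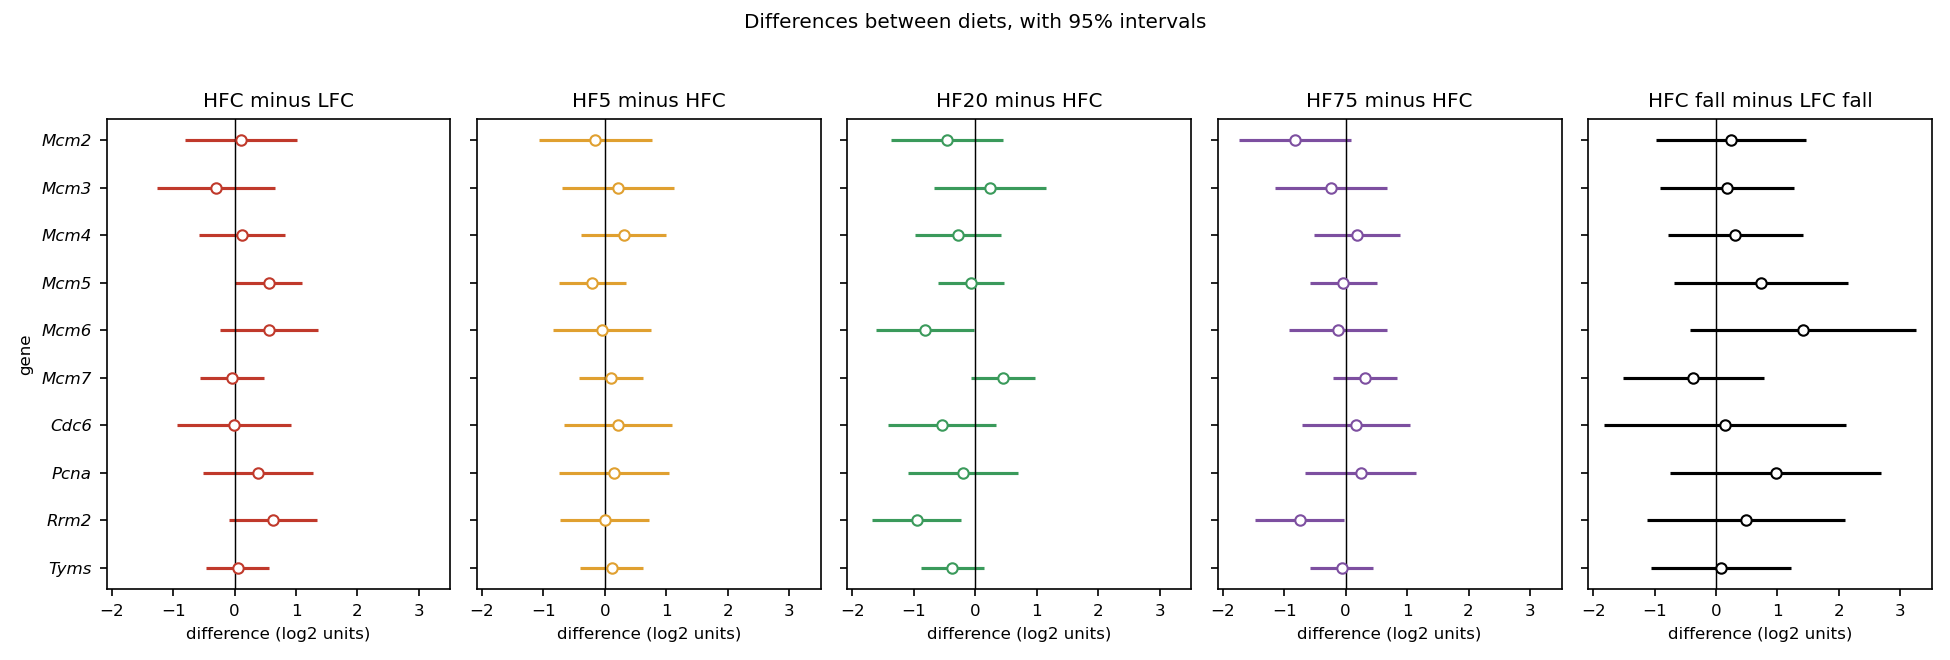
Difference of each gene between diets at weeks 3 to 18 (x axis, log2 units, with 95% intervals from limma), for HFC minus LFC and for each KAL-1 dose minus HFC. The last panel gives the HFC fall minus the LFC fall, from the separate fit of 20 arrays. The intervals that leave out 0 are those of Mcm5 for HFC minus LFC (0.56, SE 0.26), of Rrm2 and Mcm6 for HF20 (-1.68 to -0.24 and -1.62 to -0.03) and of Rrm2 for HF75 (-1.47 to -0.03), and no adjusted p passed.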

How the data were processed

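The data are 39 one-colour Agilent arrays of epididymal adipose RNA, each of 45220 spots, on 32 slides and 13 scan dates. Per the file headers, the deposited intensity values were background-subtracted within each array by Agilent Feature Extraction, with no normalisation between arrays, and annotated on mouse build mm9. The labels name version 9.1 and the file headers another. The authors' deposited table holds, for each array, its log2 difference from LFC at that time point, and was used as an alternative where diets were compared. It gives LFC as 0 throughout and says nothing of change within that diet.

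From the log2 of the processed signal the array's 75th percentile was subtracted, outlier spots were left out and a probe's remaining spots averaged. The brightest probe stood for its gene. A probe was tested if well above background on 7 of 21, 7 of 20 or 6 of 30 arrays of a fit. Tests used limma 3.58.1 in R 4.3.3 with data.table (version 1.17.8), two-sided, with Benjamini-Hochberg adjustment over all probes tested. Diets were compared with time point as a block. For late against early, 6 means (diet by days, week 0 and weeks) were fitted. Tables and figures used Python 3.11.15, pandas 2.3.3, numpy 2.4.6 and matplotlib 3.10.9. The fits were tested on simulated data. The paper's t-test compares repeats at a time point, which 1 array per time point does not allow, so a plain t-test on paired differences stands in for it and is called the methods' t-test.

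The members and the lists of other genes and markers were chosen with earlier results of these data known. All 10 members are named. In each other list up to 3 genes with the largest LFC difference among those passing are named, or the 1 with the smallest p, and the 5 genes outside the lists most like the members' mean. Promoter sequences are those of RefSeq on GRCm38.p6, used for sequence only, and 28136 of 40628 probes matched RefSeq genes by accession. Alternatives were other scalings, normexp background (offset 50), outlier spots kept, other filters, array weights, other choices of early arrays, blocks and arrays left out. A slide block, and scan date in place of time point, were chosen after seeing the data. The number of arrays limits the precision.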

Additional observations from a re-analysis of the deposited data

Results flagged for a closer look

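Among the 10 genes, 59 groups of 4 to 6 arrays were checked for a value far from the rest of its group, and chance alone gives about 1 in 20 such groups. Cdc6 on the LFC week 12 array, at -4.92, lay apart from the other late LFC values. Mcm2 on the HF75 week 15 array, at -5.25, lay apart from the other HF75 values, and its probe was not well above background on that array.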

How the results depend on the processing

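Counts of passing genes and medians over the 10 genes were recomputed under each alternative, and no result changed sign while passing. The 2 LFC calls became 1 with median scaling and 0 with quantile normalisation, normexp background, week 0 alone as the early array or each diet fitted alone, and 0 to 2 with 1 array left out in turn. They were 0 without LFC day 1, day 6 or day 14 and 1 without LFC week 18. The LFC median was -0.57 with array weights and -0.59 with week 0 alone, and -1.23 to -0.84 with 1 array left out. On HFC array weights gave 6 calls (Mcm3, Mcm5, Mcm6, Mcm7, Rrm2 and Tyms, where 16.7% of all probes passed with a lower late value), and 1 array left out gave 0 to 1 (1 without LFC week 12, Rrm2, adjusted p = 0.024 by limma). The HFC median was -0.97 with array weights and -0.41 with week 0 alone, and -1.23 to -0.35 with 1 array left out, the ends being without HFC day 14 and day 6. Median scaling gave medians of 0.43 (HF5), 0.35 (HF75) and 0.27 (average of the doses) against HFC. The cause was not tested in these cases. The time point as a random replicate block (correlation 0.079) left 2 calls on LFC and 0 on HFC, as did the slide (correlation -0.057). Without the replicate block the comparisons of diets had 0 calls, as with scan date in its place. Over all probes, lower calls on LFC went from 107 to 271 without the 2 arrays that stood apart. With 3 or 4 early arrays per diet, 1 array per time point and a low signal for Cdc6, smaller differences could have been missed.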
